A study of Equus caballus with 9 samples.

Results

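In horse cells grown as three-dimensional (3D) collagen gels, 124 of the 21689 genes listed were read in each of 3 embryonic stem cell (ESC) derived tenocyte lines and were at or near 0 in every adult and fetal tenocyte line. The 124 genes were selected on these counts. Each had at most 3 counts in each of the 6 adult and fetal libraries and at least 10 CPM (a count divided by the total of its library, times 1000000) in each of the 3 ESC-tenocyte libraries. They made up 0.572% of the genes listed and 1.51% of the 8204 genes at 10 CPM or more in each ESC-tenocyte library. The level in every library below is therefore a description of what was selected, and no test was made of it.

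Tenocytes are the fibroblast-like cells of tendon, which lay down and maintain its collagen-rich matrix. ESCs come from the early embryo and can form many cell types, and a cell made from them by differentiation can keep transcripts of its origin or gain transcripts of lineages other than the one intended. Gene silencing is seldom read as a strict 0 in RNA sequencing, since a few reads can fall on a gene that is scarcely transcribed.

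The study asked how far ESC-tenocytes match fetal or adult tenocytes in their whole transcriptome. Each group had 3 lines with 1 library per line, and all constructs were kept in 3D culture for 14 days. Adult tenocytes came from the tendons of horses aged 2 to 6 years (lines CD, TB130911 and TB250718B at passages 4, 6 and 4). Fetal tenocytes came from fetuses at 271, 319 and 320 days of gestation (lines 271d, 319d and 320d at passages 5, 8 and 4). The ESCs came from different embryos (line HJ at passage 12, IG at 16 and PW at 14) and had been kept on a mouse embryonic fibroblast layer before they were placed in the gels. No line carried a transgene or a genetic change named in the labels. The ESC gels were fed ESC medium without leukaemia inhibitory factor and were seeded with clumps of cells. Adult and fetal gels were seeded with dispersed cells and fed tenocyte medium. All ESC lines were also at higher passages than the adult and fetal lines. Cell source, passage, seeding and medium thus cannot be told apart. Whether the 2 library kits of the study also followed the groups is not known here. The share of ESCs that became tenocytes was not measured here. In such bulk RNA, fewer cells of a type and less RNA per cell cannot be told apart.

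The shallowest libraries were the ESC-tenocyte ones, with totals of 8965593 counts in PW, 9412112 in HJ and 10772461 in IG, together with fetal 320d at 10568491 and adult CD at 11109492. The deeper ones were adult TB250718B at 18536676 and TB130911 at 20411868, and fetal 271d at 19801323 and 319d at 20705852. The ceiling of 3 counts was thus worth 0.145 CPM in the deepest tenocyte library (319d) and 0.284 CPM in the shallowest (320d). The minimum of 10 CPM was worth 94.1 counts in HJ, 108 in IG and 89.7 in PW, so a wide gap in counts lay between the levels that chose the genes. The genes carry Ensembl identifiers that the files used here do not pair with symbols. The members are therefore described by level, and neither they nor the labelled cell types could be set against marker genes.

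Library IG stood apart from HJ and PW in tenocyte transcripts. Of the 7721 genes at 10 CPM or more in each adult and fetal library, 252 had at most 3 counts in HJ and 229 in PW, but 0 had so few in IG. A total of 190 of these genes had at most 3 counts in both HJ and PW, and in IG they had from 6 to 623 counts with a median of 40. In IG they stood at a median of 7.49% of their mean level in adult and fetal tenocytes (quartiles 5.19% and 9.67%), and the median was 7.21%, 7.49% and 6.96% of the level in CD, TB130911 and TB250718B and 8.64%, 8.47% and 7.35% of that in 271d, 319d and 320d. IG thus held low levels of many transcripts that were at or near 0 in HJ and PW. Tenocyte-like cells within the IG constructs and RNA carried over from another sample cannot be told apart in these counts. The part this plays in the results was not tested, and the main values that rest on IG are also given without it. With the rule applied without IG there were 132 genes.

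The members together took 0.997% of all counts in HJ, 0.951% in IG and 0.970% in PW (0.973% ± 0.0232 SD, n = 3). In counts these were 93817.62 (HJ), 102394.45 (IG) and 86988.43 (PW). In adult tenocytes the same genes summed to 32 counts (CD), 45 (TB130911) and 27 (TB250718B), and in fetal tenocytes to 92.13 (271d), 84 (319d) and 47 (320d). About 1 count in every 100 of an ESC-tenocyte library fell on these genes, against 327.13 counts in the 101133702 of all 6 tenocyte libraries pooled. The pooled tenocyte level of the members was 0.0333% of their pooled ESC-tenocyte level.

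**Figure D1:**
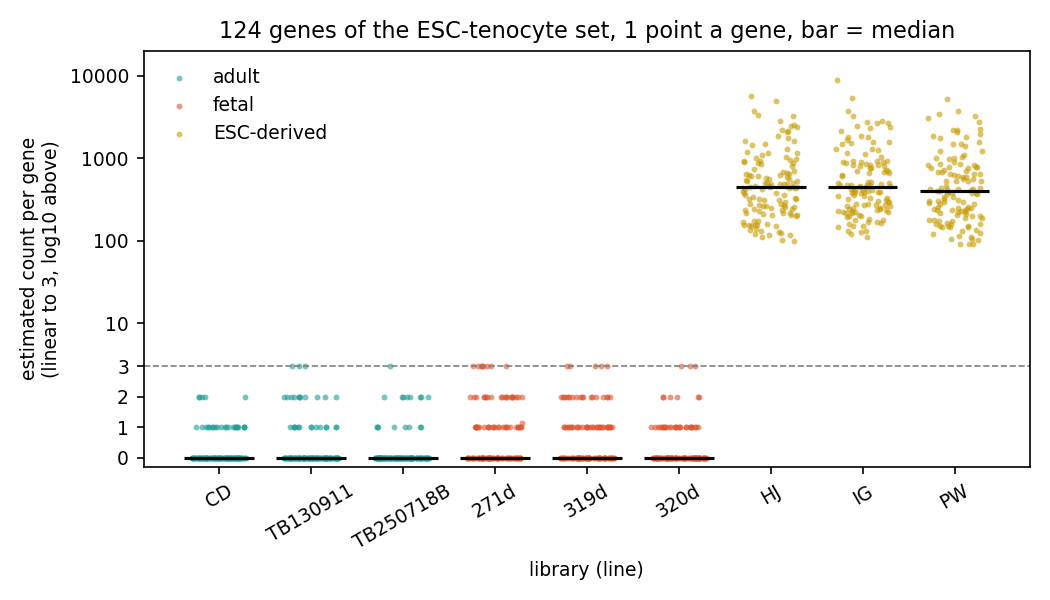
Estimated count of each of the 124 members in each of the 9 libraries, with 1 point per gene and a bar at the median. The count axis is linear up to 3 and log10 above, and the dashed line marks the ceiling of 3 counts. Medians were at 0 in all 6 adult and fetal libraries, and the lowest member stood at 10.4 CPM in HJ, 10.1 in IG and 10.0 in PW.

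In ESC-tenocytes most of the 124 genes were of ordinary abundance. Their mean level over the 3 lines ran from 10.3 to 478 CPM, with quartiles of 25.7, 46.3 and 84.8 CPM, and the median of all 8204 genes at 10 CPM or more in each line was 48.2 CPM. A mean above 100 CPM was found for 27 members, above 200 CPM for 11 and above 300 CPM for 5. The member with the highest level ranked 304 among all genes. No few genes carried the total, since the 3 most abundant members held 13.0% (HJ), 16.6% (IG) and 12.1% (PW) of the member counts and the 10 most abundant 34.5%, 34.4% and 34.0%. These levels are counts per library and are not corrected for transcript length, so they do not order the genes by number of transcripts.

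The most abundant member, ENSECAG00000014635, had 5589 counts in HJ, 2812 in IG and 5191 in PW (594, 261 and 579 CPM, mean 478 ± 188 SD, n = 3). It had 0 counts in CD, TB130911 and TB250718B, and 3, 3 and 2 in 271d, 319d and 320d. HJ and PW were alike for this gene and IG lay 2.27-fold below the highest of them. Over pooled libraries its level in ESC-tenocytes was 5895 times that in tenocytes, with a 95% exact interval from 2991 to 13656 that covers counting error only, and without IG it was 7415 (3762 to 17180.4).

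The next in level, ENSECAG00000016114, had 4894, 5410 and 3459 counts in HJ, IG and PW (520.0, 502 and 386 CPM, mean 469 ± 72.9 SD, n = 3). It also had 0 counts in each adult library, and 2, 3 and 1 in 271d, 319d and 320d. Here IG lay between the other lines, and the lines were within 1.35-fold of each other. The pooled ratio was 7958 (95% exact interval from 3655 to 21689), and without IG it was 7661 (3518 to 20882). Both genes were thus at 0 in all adult lines and at a trace in all fetal lines.

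The third in level behaved otherwise among the ESC lines. It had 1750 counts in HJ, 8788 in IG and 1857 in PW (186, 816 and 207 CPM), so that IG held 4.15 times the mean of HJ and PW. Of its 3 tenocyte counts 2 were in CD and 1 in 320d. With IG left aside this gene stood at 186 and 207 CPM, well below the first 2 members.

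A wide ratio between ESC-tenocytes and tenocytes was set by the rule, and the ratios only describe its size. For the 97 members with a tenocyte count the pooled ratio had a median of 2519.9. It was lowest, at 166 (95% exact interval from 92.1 to 335), for a gene with 527 ESC-tenocyte and 11 tenocyte counts. It was highest, at 15945 (2860.5 to 629944), for a gene with 4596 and 1. For the 27 members with 0 counts in all 6 tenocyte libraries the level in ESC-tenocytes was at least 346-fold to at least 4813-fold higher, with a median bound of 1080.1, taking a floor of 3 counts over the 6 libraries pooled (0.0297 CPM). Without IG the ratios ran from 191 to 19123 with a median of 2310.2, and the bounds from 349 to 6683 with a median of 888.

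Residual counts in tenocytes were few and spread over many members. The number of members at 0 was 97 in CD, 96 in TB130911 and 107 in TB250718B, and 68, 68 and 89 in 271d, 319d and 320d. Over the 6 libraries a member had a median of 2 counts and at most 12, with 62 members at a total of 1 to 3 and 35 above 3. A count of exactly 3, the ceiling, was found in 20 of the 744 pairs of a member and a tenocyte library, in 16 members. Residual counts, which the rule limited to 3 per library, were most numerous among the members most abundant in ESC-tenocytes. Ordered by ESC-tenocyte level and taken 31 at a time, the lowest members (10.3 to 25.4 CPM) held 67 tenocyte counts, the next sets 60 and 87.13, and the highest (84.9 to 478 CPM) 113. The members at 0 in all 6 libraries numbered 11, 9, 4 and 3 in these sets.

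The residue was larger in the fetal than in the adult lines. The summed member level was 1.46 CPM in TB250718B, 2.20 in TB130911 and 2.88 in CD for adult tenocytes (2.18 ± 0.712 SD, n = 3), and 4.06 in 319d, 4.45 in 320d and 4.65 in 271d for fetal tenocytes (4.39 ± 0.303 SD, n = 3). The groups did not overlap for the members, whose tenocyte counts the rule limited, and the sums of other genes are given below. The shallower tenocyte libraries hold 1 line of each group (CD and 320d), so overlap could not be judged at that depth. The members at 0 in all adult lines with a count in a fetal line numbered 45, those at 0 in all fetal lines with a count in an adult line 9, and 27 were at 0 in both groups. Over all 8204 genes at 10 CPM or more in each ESC line, members included, these numbers were 59 and 9, and over the 215 genes with a highest tenocyte count above 3 and up to 50 they were 13 and 0. With the counts of each group pooled and divided by its depth, 69 members were higher in fetal and 28 in adult tenocytes, so that 71.1% of the unequal members were higher in fetal tenocytes. That share was 61.9% over all 8204 genes, 62.8% over the 215 genes, and 49.6% over the other 1786 genes with at most 3 counts in each tenocyte library and a count in at least 1 of them. Of those 1786 genes, 612 had counts in fetal lines alone and 461 in adult lines alone. Their summed level overlapped between the groups, at 55.0, 44.8 and 50.5 CPM in CD, TB130911 and TB250718B and 54.8, 51.0 and 72.6 in 271d, 319d and 320d. The sum over all 8204 genes overlapped too, with TB130911 at 824713 CPM and the fetal lines at 817687 to 821483. Over the 215 genes it did not, at 94.9 to 121 CPM in adult and 135 to 145 in fetal lines. These values were part of the selection, so no test was made.

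The order of the groups was the same when the ceiling was raised. Genes at 10 CPM or more in each ESC-tenocyte library and at most 10 counts in each tenocyte library numbered 193, and they summed to 12.8, 9.70 and 11.7 CPM in CD, TB130911 and TB250718B and to 16.7, 15.8 and 19.4 in 271d, 319d and 320d. With a ceiling of 50 counts the sums were 112, 97.1 and 122 in the adult lines and 142, 139 and 149.8 in the fetal lines. The relative gap between fetal and adult lines narrowed as more abundant genes were let in, though the lines of the groups remained apart.

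The ceiling of 3 counts fell within a continuous range and not at a gap. Among genes at 10 CPM or more in each ESC-tenocyte library, the highest tenocyte count was 0 for 27, above 0 and up to 1 for 47, up to 2 for 34 and up to 3 for 16. Just outside, it was above 3 and up to 4 for 18 genes, up to 5 for 10 and up to 10 for 41. Of these 69 genes between 3 and 10 counts, 34 were kept out by 1 library alone, namely TB250718B for 9, 271d and 319d for 8 each, 320d for 5, TB130911 for 3 and CD for 1. Fetal libraries alone kept out 31 of the 69, adult libraries alone 15, and libraries of both groups 23. At the other threshold, the members just inside stood at 10.0 and 10.1 CPM in their lowest line, the latter at 10.4 in HJ, 10.1 in IG and 10.3 in PW. The gene just outside stood at 13.8 CPM in HJ, 9.93 in IG and 12.9 in PW.

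**Figure D2:**
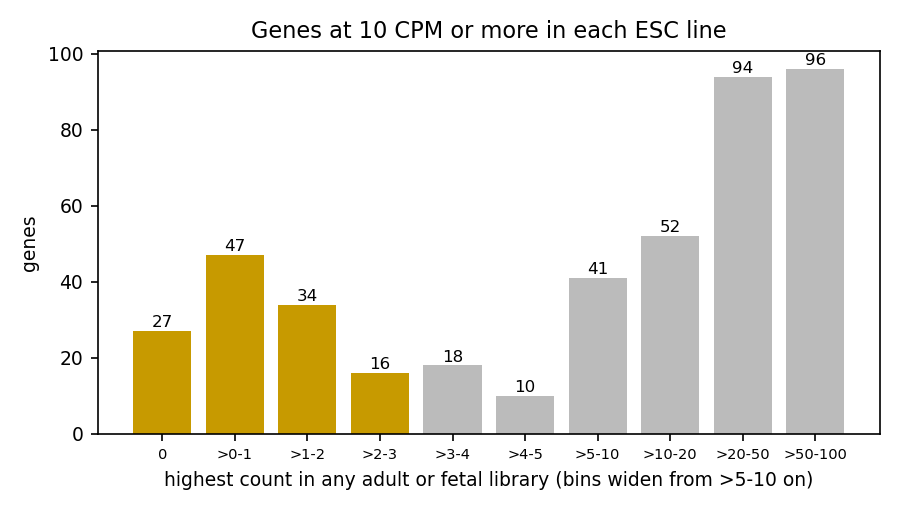
Number of genes at 10 CPM or more in each ESC-tenocyte library by their highest count in any adult or fetal library, with bins that widen to the right. The 124 members are the 4 gold bars up to 3 counts (27, 47, 34 and 16 genes), and the next bars hold 18, 10 and 41 genes.

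How many ESC lines shared a gene that was low in tenocytes is given as a description with no test, since the rule used these levels. Of 6761 genes with at most 3 counts in each tenocyte library, 186 reached 10 CPM in at least 1 ESC line, and 124 of these (66.7%) did so in all 3. Over all genes 9541 reached 10 CPM in at least 1 line, and 86.0% of them did so in all 3. The shares lay closer together at higher levels, at 81.0% of 142 genes and 95.8% of 7688 for at least 20 CPM in the highest line, and 88.1% of 84 and 98.1% of 4525 for at least 50 CPM. Of the 186 genes low in tenocytes, 26 reached 10 CPM in 2 lines (9 in all but HJ, 8 in all but IG and 9 in all but PW). The remaining 36 reached it in 1 line, with 19 in IG, 10 in HJ and 7 in PW. Genes of 1 line were low, with a median of 15.0 CPM in that line, although the highest reached 172 CPM.

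The members varied more among the ESC lines than genes at large, as a description with no test. The highest line was a median of 1.65-fold above the lowest, against 1.28-fold over all 8204 genes at 10 CPM or more in each ESC line. The lines lay over 2-fold apart for 47 members (37.9%) against 7.09% of all genes, and over 4-fold apart for 12 (9.68%) against 1.17%. Without IG the number over 4-fold apart was 1 (0.806%, all genes 0.475%), and that over 2-fold apart was 16 (12.9%, all genes 3.33%). The median coefficient of variation over the 3 lines was 26.1% for members and 13.0% for all genes. Between HJ and PW alone the median distance was 1.31-fold for members and 1.15-fold for all genes, and the median coefficient of variation 19.0% and 10.1%. The excess was seen at each level, since the same sets of 31 members, from the lowest level to the highest, had medians of 1.39, 2.11, 1.64 and 1.68-fold, against 1.32, 1.30, 1.26 and 1.26-fold for all genes of those levels. Between HJ and PW alone these medians were 1.27, 1.26, 1.43 and 1.31-fold, against 1.17, 1.16, 1.14 and 1.14-fold. In the lowest set the medians lay close to all genes for HJ and IG (1.19 against 1.17-fold) and for IG and PW (1.24 against 1.21-fold). Over 2-fold apart in that set were 5 members for HJ and IG (16.1%, all genes of that level 1.99%). For IG and PW there were 0 (all genes of that level 2.24%). The excess was not particular to the ceiling of 3 counts. The 215 genes with a highest tenocyte count above 3 and up to 50 had a median of 1.60-fold, with 30.7% over 2-fold apart (without IG 1.28-fold and 14.4%).

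The wide gaps were more frequent between IG and either other line, whereas the median distance of the members was 1.30-fold for HJ and IG, 1.31-fold for HJ and PW and 1.39-fold for IG and PW. Against the 16 members over 2-fold apart between HJ and PW, the numbers were 29 for HJ and IG (23.4%, all genes 2.89%) and 28 for IG and PW (22.6%, all genes 4.49%). Over 4-fold apart were 1 member for HJ and PW, 10 for HJ and IG (8.06%, all genes 0.439%) and 6 for IG and PW (4.84%, all genes 0.841%). The 215 genes with a highest tenocyte count above 3 and up to 50 differed in this. Of them 9 were over 4-fold apart for HJ and PW, 5 for HJ and IG and 9 for IG and PW. Over 2-fold apart were 31, 33 and 37 of them. Across the 124 members, Pearson's r of log2 CPM was 0.88 between HJ and PW, 0.75 between HJ and IG and 0.78 between IG and PW (Spearman's rho 0.84, 0.72 and 0.75), and over all 8204 genes r was 0.96, 0.96 and 0.94. These are descriptions across genes of shared libraries, and genes are not independent replicates.

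Single members stood out in IG in both directions. IG was over 2-fold below both other lines for 10 members (8.06%, all genes 0.500%) and over 2-fold above both for 7 (5.65%, all genes 0.780%). HJ was so far below for 2 members (1.61%, all genes 0.378%) and above for 3 (2.42%, all genes 0.341%). PW was below for 2 (1.61%, all genes 1.27%) and above for 2 (1.61%, all genes 0.341%). Of the 215 genes with a highest tenocyte count above 3 and up to 50, IG was so far below for 1.40%, HJ for 2.79% and PW for 3.26%. Among the same 215 genes IG was so far above for 4.19%, HJ for 1.40% and PW for 3.26%. The 7 members high in IG were at 2.43 to 5.09 times the mean of HJ and PW, and they took 17.6% of the member counts in IG against 3.62% in HJ and 4.59% in PW. The 10 members low in IG were at 0.204 to 0.459 times that mean, and took 5.29% of the member counts in IG against 14.6% in HJ and 14.8% in PW.

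By the ratio of IG to the mean of HJ and PW, the member furthest above (5.09 times) had 206 counts in HJ, 2650 in IG and 670 in PW. These were 21.9, 246 and 74.7 CPM, an 11.2-fold range over the lines. HJ was also over 2-fold below PW for this gene, so each line had its own level. By the same ratio, the member furthest below (0.204 times) had 1090, 230 and 841 counts in HJ, IG and PW (116, 21.4 and 93.8 CPM). Another, at 0 in all 6 tenocyte libraries, stood at 171, 35.9 and 173 CPM in HJ, IG and PW, with HJ and PW alike. The members high in IG had 16 counts in the 6 tenocyte libraries together, and 1 of the 7 had 0. These tenocyte counts were limited by the rule.

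**Figure D3:**
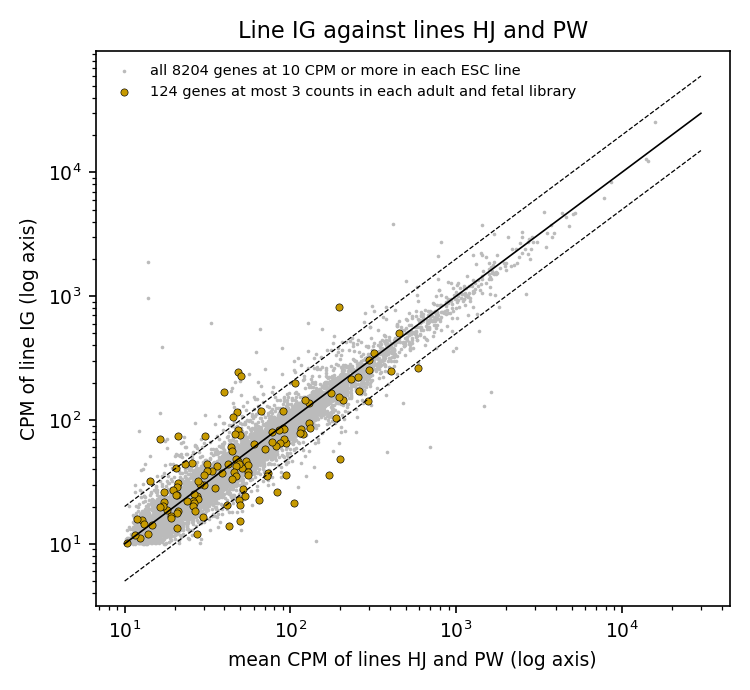
CPM of each gene in line IG against its mean CPM in lines HJ and PW, both on log axes, for the 8204 genes at 10 CPM or more in each ESC-tenocyte library (grey) and the 124 members among them (gold). The solid line marks equal levels and the dashed lines a 2-fold difference. Members lie on both sides of the line, and 10 were over 2-fold below and 7 over 2-fold above both other lines in IG.

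Which line was most often the lowest depended on the scaling. By CPM the lowest line was IG for 52 members (41.9%, all genes 45.3%), PW for 45 (36.3%, all genes 26.2%) and HJ for 27 (21.8%, all genes 28.5%). With library sizes scaled by the trimmed mean of M-values (TMM) it was IG for 40 (32.3%, all genes 28.7%), PW for 54 (43.5%, all genes 40.2%) and HJ for 30 (24.2%, all genes 31.2%). By CPM the highest line was HJ for 52 members (41.9%, all genes 29.1%), IG for 39 (31.5%, against 2053 of all 8204 genes) and PW for 33 (26.6%, all genes 45.8%). With TMM it was HJ for 53 (42.7%, all genes 29.0%), IG for 46 (37.1%, all genes 41.9%) and PW for 25 (20.2%, all genes 29.1%). Under both scalings PW was the highest line less frequently among members than among all genes and HJ more frequently, whereas IG changed side, as a description with no test.

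No gene met the mirror rule, with at most 3 counts in each ESC-tenocyte library and at least 10 CPM in each adult and fetal library. Without IG the number was 190, and without HJ or without PW it was 0. With a ceiling of 10 counts in place of 3 it was 7, and with a ceiling of 50 it was 225. With all lines the numbers in the 2 directions were thus 124 and 0, and without IG they were 132 and 190.

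Signs of read counts shared with other genes were about as frequent among members as among all genes. An estimated count more than 0.01 away from a whole number, which arises where reads are divided among transcripts of several genes, was found in an ESC-tenocyte library for 9 members (7.26%) and for 546 of the 8204 genes (6.66%). For those 9 genes the level is less certain than the counts alone would give. Sharing that left whole numbers would not be seen by this measure.

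In the fit across all genes, the members' calls restate the rule that chose them. A gene was called with a Benjamini-Hochberg adjusted p under 0.01 and a log2 fold change of at least 2 in edgeR's quasi-likelihood test. Of 13197 genes tested, 9.36% were called higher in ESC-tenocytes than in adult tenocytes and 8.34% higher than in fetal tenocytes, and all 124 members passed the filter on low counts and were called in both comparisons, which share the ESC-tenocyte libraries. All ESC-tenocyte libraries were above all tenocyte libraries for 22.8% of the 17648 genes with any count, and for the 124 members by selection. The filter let the members through on their ESC-tenocyte counts alone, so nothing is read from these numbers. Depth was uneven between groups, as all 3 ESC-tenocyte libraries but only CD and 320d among tenocytes were of the shallower class. With depth class as a term, 113 members were called against adult and 111 against fetal tenocytes, and the shares of all genes called higher in ESC-tenocytes were 7.81% and 6.74%.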

How the data were processed

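The authors sequenced 9 RNA samples, each harvested from several gel constructs. Reads were quantified with Salmon (quasi-mapping, GC-bias correction) against the Ensembl version 96 EquCab 3.0 transcriptome. Estimated counts were imported to genes with tximport and deposited without normalisation. CPM values are these counts divided by column sums. For edgeR (4.0.16, R 4.3.3) they were rounded, filtered with filterByExpr, TMM-scaled and fitted with glmQLFit and glmQLFTest on all 9 libraries by group. The fit was tested on simulated data. DESeq2 (1.42.0) was an alternative. The study states a batch correction and 2 library kits, but the sources used here do not assign libraries to them, so no batch term was used. Lines within a group differed by 49.1 to 109 chi-square per degree of freedom, where 1 would be counting noise alone.

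The members and lists were chosen with earlier results of these data known. The rule for named genes needed symbols. The RefSeq gene table used here matched 0 identifiers, so 16 marker lists (246 symbols) were not analysed here, nor were positions and sequences. Instead the 2 most abundant members are given by identifier, and others without, chosen after their values were seen. Intervals and the floor of 3 counts cover counting error only.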

Additional observations from a re-analysis of the deposited data

How the results depend on the processing

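The number of genes in the set followed its thresholds. It was 27, 74, 152 and 193 with a ceiling of 0, 1, 5 and 10 counts in place of 3, and 156, 85 and 35 with a minimum of 5, 20 and 50 CPM in place of 10. It was 122 with TMM-scaled CPM, 150 with a ceiling of 0.3 CPM, and from 125 to 135 when any 1 of the 9 libraries was left out. The share of ESC-tenocyte counts was 0.837% without the 3 most abundant members and 0.118% for the members at 0 in all tenocyte libraries, since fewer genes were summed. IG was the lowest line for 26 of the 54 members with a mean of at least 50 CPM and, with TMM scaling, for 40 members. Members over 2-fold apart numbered 16 without IG, 28 without HJ and 29 without PW, and those over 4-fold apart 1, 6 and 10, each from fewer lines. These values, the ratios without IG and the highest line with TMM were added after the data were seen. In edgeR the members called ranged from 123 to 124 with 1 library left out, and were 124 in the other alternatives in both comparisons except with depth class as a term (113 and 111). No paired analysis was made, since no label links a line of any group to a line of another. Depth limits the tenocyte levels. With the floor of 3 counts over the 6 libraries pooled, a gene at 0 in all of them could average anywhere up to 0.0297 CPM. In a single tenocyte library the same floor was worth 0.145 CPM (319d) to 0.284 CPM (320d).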
